A study of Mus musculus with 14 samples.

Results

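The genes described here are 33 genes of the cell division cycle, followed through 14 RNA sequencing libraries of mouse bone marrow-derived macrophages, cells that mature in a dish from marrow precursors. They were found in the deposited count table by Ensembl identifier and symbol, and each of the 33 had a single row among 47937 genes. All libraries are labelled WT for genotype. Of the 14, 6 were untreated, 5 had received mast cell supernatant for 3.5 h and 3 the supernatant of mast cell traps for the same time. The labels place them in 3 batches, with 5, 4 and 5 libraries, and each batch holds all 3 groups. The labels give no strain, age or sex and do not say whether replicates were separate cultures, so the spread behind each p-value may be technical. In a bulk library, fewer dividing cells and less RNA of a gene per cell cannot be told apart.

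Total counts ran from 11729073 to 22720419 per library, and the fewest counts of any of the 33 genes in a library were 37, for Cdc6. Levels are given as CPM, counts per 1e6 counts of a library after TMM scaling. Libraries of batch 3 nearly lacked 1 transcript, that of Lyz2, the lysozyme gene that macrophages express at very high levels. It had 1 or 2 counts in each of the 5 libraries, against 68853 to 224532 counts in the other 9. No other gene at 5 CPM or more elsewhere was so nearly absent from 1 batch. Whether the WT label holds for batch 3 at this gene was not tested, since counts of RNA do not give a genotype. The other 10 macrophage markers, with Csf1r, Cd68 and Adgre1 among them, summed to 9175 to 10058 CPM in batch 1, 7248 to 7834 in batch 2 and 9611 to 10579 in batch 3, so the labelled cell type was well marked in every library. Lists of dendritic, B and T, and erythroid cell markers summed to at most 3.95 CPM in any library. The 12 mast cell markers summed to 7.11 to 9.36 CPM without treatment; the range was 85.7 to 1458 CPM after mast cell supernatant and 88.25 to 2081 CPM after trap supernatant.

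Cells copy their DNA in S phase and divide it in mitosis, and the genes for both are switched on in waves. In early G1, repressive complexes of the E2F and DREAM families hold these genes down. Cyclin D and cyclin E kinases lift the block at the G1/S boundary, E2F factors then drive the genes for DNA replication, and a later wave drives the genes for mitosis. Macrophages grown in culture with their growth factor go on dividing for some days, and the level of these genes in a culture is widely used as a readout of how much of it is cycling. The 33 genes fall into 6 roles: 8 that license origins and build the replication fork, 4 for DNA synthesis, 3 regulators of the G1/S step, 7 mitotic cyclins and kinases, 3 of the spindle checkpoint and anaphase-promoting complex (APC/C), and 8 of the spindle, kinetochore and chromosome.

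The promoters of the 2 waves differ in their letters, and 5 stretches are shown because they set the replication genes beside the mitotic ones. RefSeq promoter windows (GRCm38.p6, 250 bases before to 50 after the start) were found for 26 of the 33 genes. The motifs searched, on both strands, were the cell cycle homology region (CHR, TTTGAA), the CCAAT box (CCAAT) and the E2F site (TTTCGCGC, TTTGGCGC, TTTCCCGC or TTTGCCGC). Capitals below mark every match, and neighbouring capitals can be overlapping matches, as with the first E2F pair in Mcm5 and in Mcm6. Each stretch reads 5′ to 3′ on the strand of its gene and ends at the base before the start of the transcript.
Mcm5, chr8:75109349-75109508, plus strand: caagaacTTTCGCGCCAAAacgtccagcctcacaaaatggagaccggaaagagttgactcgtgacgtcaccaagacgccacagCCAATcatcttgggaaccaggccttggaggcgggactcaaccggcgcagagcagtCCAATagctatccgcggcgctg
Mcm6, chr1:128359706-128359825, minus strand: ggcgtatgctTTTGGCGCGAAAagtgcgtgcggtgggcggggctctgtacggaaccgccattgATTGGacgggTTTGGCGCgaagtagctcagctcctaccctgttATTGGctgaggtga
Cdk1, chr10:69352913-69353052, minus strand: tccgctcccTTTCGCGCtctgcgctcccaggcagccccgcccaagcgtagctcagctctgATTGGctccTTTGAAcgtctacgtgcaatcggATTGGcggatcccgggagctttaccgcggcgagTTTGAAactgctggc
Top2a, chr11:99024190-99024299, minus strand: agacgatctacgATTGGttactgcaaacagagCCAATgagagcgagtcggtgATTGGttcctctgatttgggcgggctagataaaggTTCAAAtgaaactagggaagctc
Cdc20, chr4:118437344-118437403, minus strand: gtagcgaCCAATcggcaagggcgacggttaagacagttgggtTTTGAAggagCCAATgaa

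An E2F match was found for 6 of the 12 replication and G1/S genes with a window (50%), namely Mcm3, Mcm5, Mcm6, Mcm7, Cdc6 and Uhrf1. It was found for 1 of the 14 mitotic genes (7.1%), Cdk1, and in 2.3% of all 32851 windows. The CHR ran the other way, with a match in 10 of the 14 mitotic genes (71.4%), in 1 of the 12 others (8.3%), Mcm2, and in 17.9% of all windows. In Cdk1 its matches began 71 and 15 bases before the start, in Cdc20 18 bases before it. CCAAT boxes were in 13 of 14 mitotic genes (92.9%), in 8 of 12 others (66.7%) and in 37.4% of all windows. A gene was counted if any of its windows matched, whereas the share of all windows is by single window. The 26 genes had 28 windows, with more than 1 for Mcm7 and Uhrf1. The E2F match of Uhrf1 was in only 1 of its windows. A match here is a description of letters and not a site of binding.

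All 33 genes were measured in every library and all passed the filter on low counts. In untreated libraries Pcna, the sliding clamp that holds DNA polymerase on its template, had the highest level, 367 ± 52.3 CPM (SD, n = 6). Cdc6, which loads the replicative helicase on origins, had the lowest, 5.11 ± 2.05 CPM. Levels were also divided by exon length, merged over all annotated transcripts of a gene, which can exceed the length of the transcripts expressed. Per kilobase of this length Pcna stood at 152.9 CPM, Mcm6, a helicase subunit, at 24.2, and E2f1, the activating E2F factor, at 15.1. The lowest per kilobase was Cenpf, a kinetochore protein, at 0.641 CPM, with a merged length of 15433 bases.

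**Figure D1:**
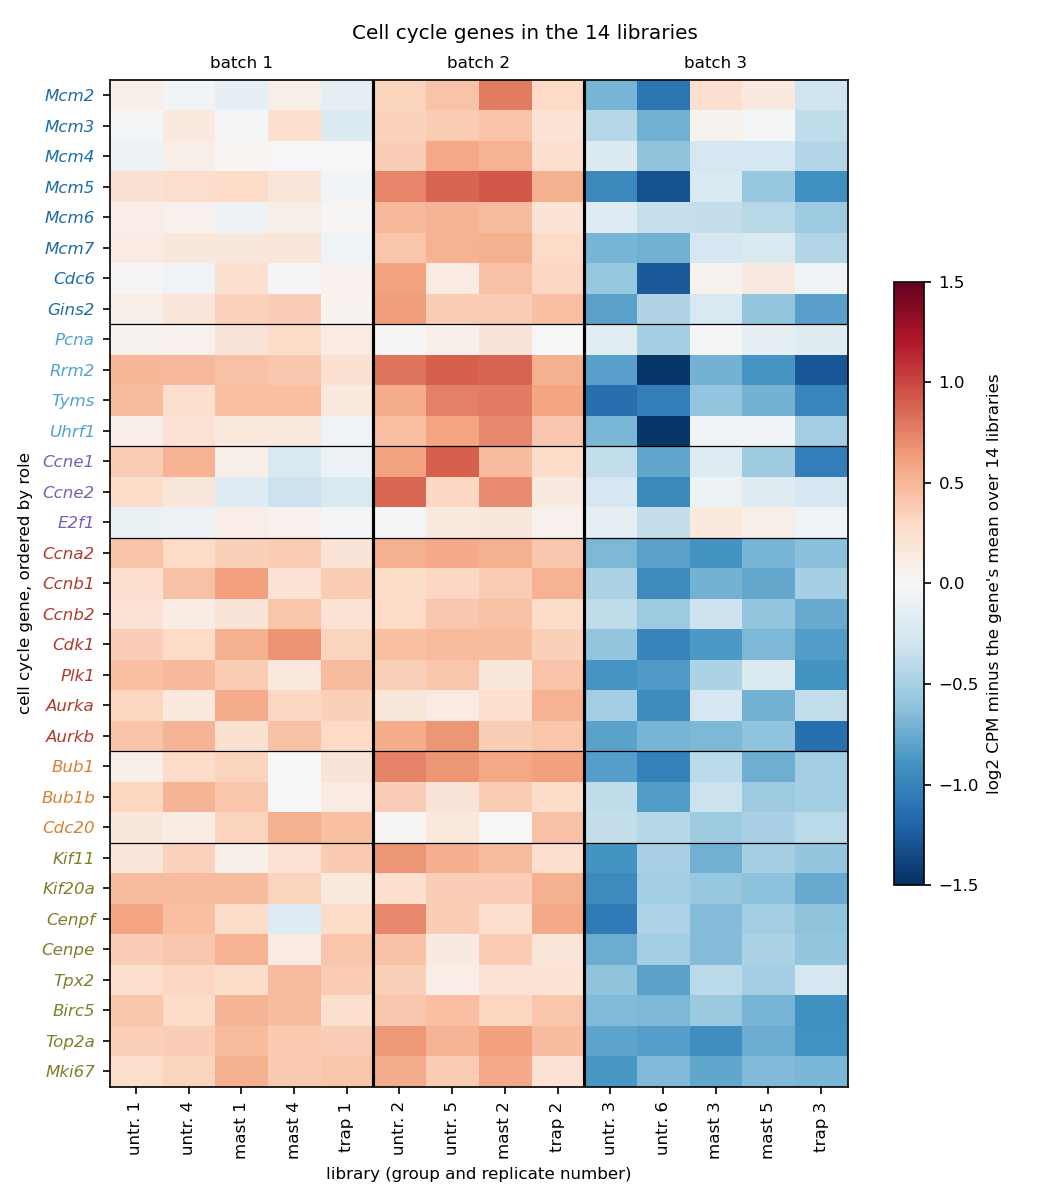
Level of each of the 33 cell cycle genes (rows, coloured by role) in each of the 14 libraries (columns, by batch), as log2 CPM minus the gene's mean over the libraries. The 5 libraries of batch 3 on the right are blue for nearly every gene, and within them Mcm2, Uhrf1 and Cdc6 are paler in the supernatant libraries than in the untreated ones.

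The main difference among these genes was between batches and not between treatments. Summed over the 33 genes, the level ran from 1345 to 1451 CPM in batch 1, from 1416 to 1607 in batch 2 and from 773.6 to 1003 in batch 3, so that every library of batch 3 lay below every other library. By group the sums were 1246 ± 330 CPM in untreated libraries (SD, n = 6), 1291 ± 290.4 with mast cell supernatant (n = 5) and 1215 ± 289 with trap supernatant (n = 3), each with a spread set by batch. In the model of group and batch over all 14 libraries, 29 of 33 genes were lower in batch 3 than in batch 1 and 0 were higher, at a false discovery rate of 0.05. Over all 13061 genes tested, 21.2% were called, 10.7% lower and 10.5% higher. The median log2 fold change was -0.88 for the 33 genes and 0.005 for all genes. Against batch 2 all 33 were lower, with a median of -1.04, where 37.0% of all genes were called, 18.1% lower and 18.9% higher.

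The lower level in batch 3 ran through mitosis. All 7 mitotic cyclins and kinases were lower than in batch 1 (median log2 fold change -1.06), as were all 3 genes of the spindle checkpoint and APC/C (-0.81) and all 8 of the spindle, kinetochore and chromosome (-1.02). Top2a encodes topoisomerase II alpha, which untangles sister chromatids (ENSMUSG00000020914, chromosome 11, 98992943 to 99024189). Its level in batch 1 was 90.4 and 91.4 CPM in untreated libraries, 98.2 and 92.3 with mast cell supernatant and 90.9 with trap supernatant. In batch 2 it was 110.5 and 101 untreated, 107.5 with mast cell supernatant and 96.9 with trap supernatant. In batch 3 it was 40.8 and 39.8 untreated, 37 and 41.9 with mast cell supernatant and 37.6 with trap supernatant. The batches did not overlap between batch 3 and the others, while treated and untreated libraries of a batch lay close together. Top2a was 2.35-fold lower in batch 3 than in batch 1, a log2 fold change of -1.23 ± 0.05 (SE; edgeR adjusted p = 1.02e-09).

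Cdk1 encodes the kinase that drives entry into mitosis (ENSMUSG00000019942, chromosome 10, 69335146 to 69352938). Its 5 libraries of batch 1 lay between 30.7 and 39.8 CPM, its 4 of batch 2 between 31.99 and 34.7, and its 5 of batch 3 between 12.5 and 16.5. It was 2.34-fold lower in batch 3 than in batch 1 (log2 fold change -1.23 ± 0.08, edgeR adjusted p = 1.07e-07). Aurkb, the kinase of the chromosomal passenger complex, and Birc5, the survivin subunit of the same complex, were lower by similar amounts, with log2 fold changes of -1.17 ± 0.09 and -1.08 ± 0.08. Ccna2, cyclin A2, stood at -1.08 ± 0.07, and Mki67, the gene of the proliferation antigen Ki-67, at -1.12 ± 0.07. The smallest differences of the mitotic genes were those of Ccnb2, cyclin B2, at -0.74 ± 0.08, and of Cdc20, the activator of the APC/C, at -0.76 ± 0.1.

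The remaining mitotic genes kept apart in the same way, with no library of batch 3 as high as any of the other 9. Ccnb1, cyclin B1, the partner of Cdk1, ran from 14.5 to 19.2 CPM in batch 1 and from 6.46 to 8.99 in batch 3. Plk1, the polo-like kinase that matures spindle poles, ran from 13.7 to 17.1 CPM and from 6.53 to 10.5, and Aurka from 11.8 to 15.7 and from 5.51 to 8.92. The checkpoint kinase genes Bub1 and Bub1b ran from 11.05 to 13.9 and from 16.1 to 22.9 CPM in batch 1, and from 5.45 to 8.33 and from 8.92 to 12.8 in batch 3. Cdc20 lay at 14.5 to 19.5 CPM in batch 1 and at 9.18 to 10.4 in batch 3.

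Motor and kinetochore genes were lower too. Kif11, the motor that pushes spindle poles apart, ran from 21.05 to 26.03 CPM in batch 1 and from 10.6 to 14.1 in batch 3. Kif20a, a motor of the central spindle, ran from 18.2 to 22.9 and from 8.44 to 11.4 CPM, and Cenpe, the kinetochore motor, from 17.8 to 23.5 and from 9.73 to 11.7. Tpx2, which seeds microtubules around chromosomes, ran from 36.01 to 41.6 CPM in batch 1 and from 17.1 to 24.8 in batch 3. Cenpf came closest to meeting of the mitotic genes, with 7.37 to 12.7 CPM in batch 1 and 4 to 6.11 in batch 3, its lowest value of batch 1 being that of mast cell supernatant replicate 4.

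Among the genes of S phase the difference was uneven. All 4 genes of DNA synthesis were lower than in batch 1, 6 of 8 of licensing and the fork, and 1 of 3 G1/S regulators. Rrm2, the ribonucleotide reductase subunit that sets the supply of deoxynucleotides (ENSMUSG00000020649, chromosome 12, 24708241 to 24714146), had the largest difference of the 33. Its level in batch 1 was 37.8 and 37.7 CPM untreated, 36.3 and 35.4 with mast cell supernatant and 31.5 with trap supernatant. In batch 3 it was 15.2 and 9.70 CPM untreated, 16.3 and 14.5 with mast cell supernatant and 10.96 with trap supernatant. These ranges did not overlap, and Rrm2 was 2.70-fold lower (log2 fold change -1.43 ± 0.1, edgeR adjusted p = 1.62e-07). Tyms, thymidylate synthase, was 2.40-fold lower (-1.26 ± 0.1, adjusted p = 3.75e-07).

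The 6 subunits of the replicative helicase differed in size. Mcm5 had a log2 fold change of -0.97 ± 0.12 in batch 3 against batch 1, Mcm7 of -0.58 ± 0.08, Mcm6 of -0.41 ± 0.06, Mcm4 of -0.36 ± 0.08 and Mcm3 of -0.33 ± 0.1. Gins2, a subunit of the GINS complex that completes the active helicase, stood at -0.78 ± 0.11 and Uhrf1 at -0.64 ± 0.18. Mcm2, at -0.3 ± 0.17, did not pass the test (edgeR adjusted p = 0.217, 95% interval -0.66 to 0.06). Cdc6 (-0.37 ± 0.18), Ccne2, one of the cyclin E genes (-0.31 ± 0.19), and E2f1 (-0.05 ± 0.06, interval -0.18 to 0.08) did not pass either. E2f1 was the gene of the 33 with the smallest difference between these batches. Without the treated libraries, Mcm2 was called lower and Mcm4 was not, which left the count at 29, beside 1269 of all genes. Without the untreated ones, Ccne1, the other cyclin E gene, and Mcm3 were not called, which left 27, beside 3335 of all genes. With all libraries 2766 of all genes were called.

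Counted without any test, 26 of the 33 genes had all 5 libraries of batch 3 below all 9 others, against 3.05% of the 13061 genes tested. The exceptions were Mcm2, Mcm3, Cdc6, Uhrf1, Ccne1, Ccne2 and E2f1, all of S phase or its onset. Other measures moved with the batches too. Lyz2 was nearly absent from batch 3, and neutrophil markers summed to 274.3 to 314.6 CPM there, above the 125.4 to 187.6 CPM of batch 1 and the 73.35 to 110.9 CPM of batch 2. Progenitor markers summed to 33.97 to 60.9 CPM in batch 3 and to 23.8 to 39.7 in the other batches. Their part in the result was not tested.

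**Figure D2:**
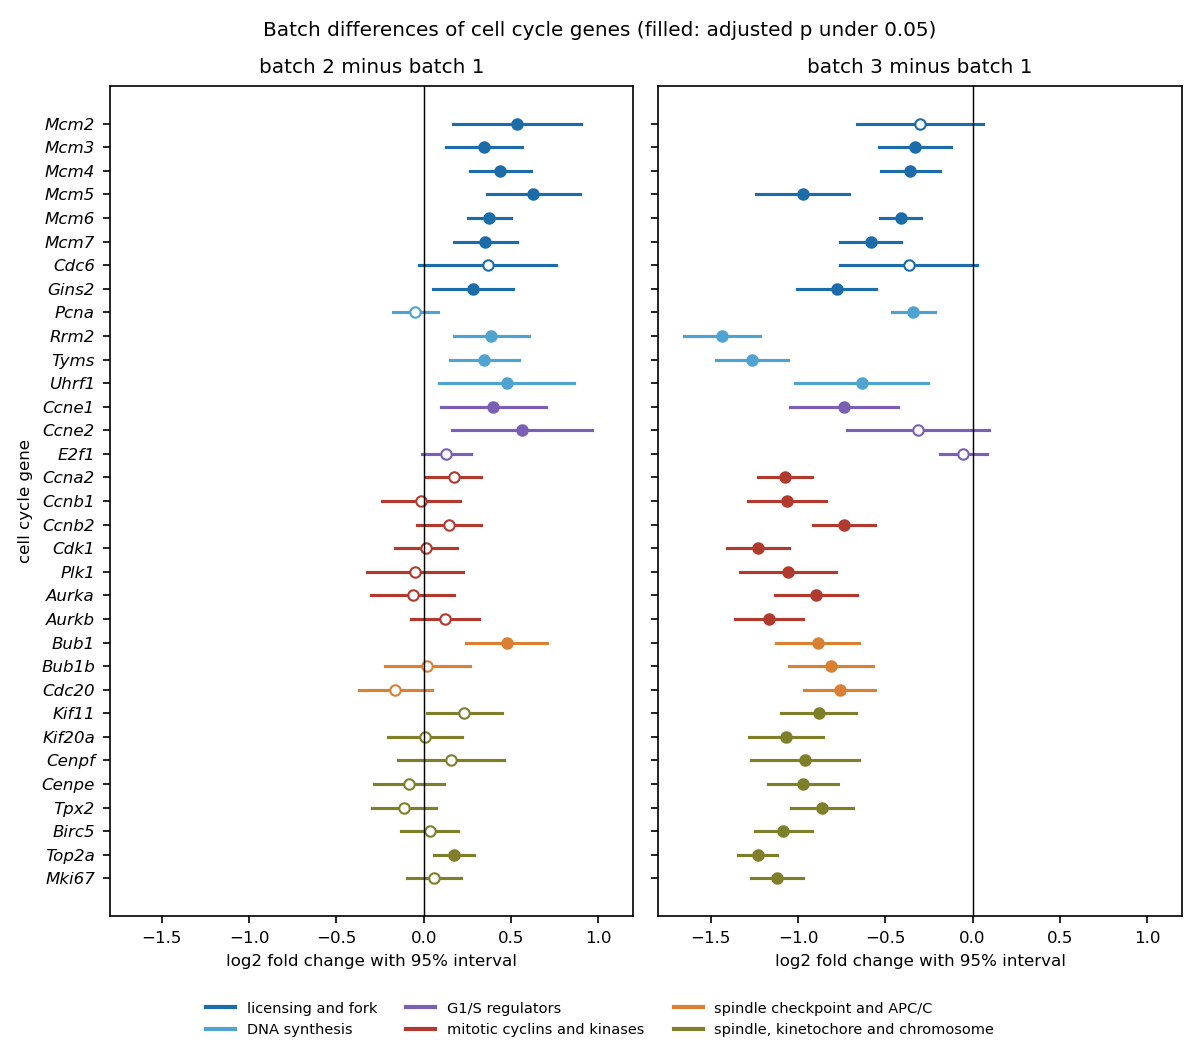
Log2 fold changes of the 33 cell cycle genes between batches with 95% intervals (bars), filled points passing an adjusted p of 0.05. On the right, 29 genes were lower in batch 3 than in batch 1, Rrm2 most, and on the left 14 genes were higher in batch 2, 12 of them genes of replication or the G1/S step.

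Batch 2 stood above batch 1 for most replication genes, though not for Pcna, and not for the list of mitotic cyclins and kinases. In all, 14 of 33 genes (42.4%) were higher in batch 2 and 0 lower, where 40.5% of all genes tested were called, 20.3% higher and 20.2% lower. They comprised 7 of 8 genes of licensing and the fork, 3 of 4 of DNA synthesis, 2 of 3 G1/S regulators, Bub1, a kinase of the spindle checkpoint, and Top2a. None of the 7 mitotic cyclins and kinases was called, and their median log2 fold change was 0.01, against 0.37 for licensing and the fork. Mcm5 lay at 35.04 to 43.8 CPM in the 5 libraries of batch 1 and at 51.96 to 68.8 CPM in the 4 of batch 2, with no overlap. It differed most of the genes called (log2 fold change 0.63 ± 0.12, edgeR adjusted p = 0.00131). The next were Ccne2 at 0.56 ± 0.19, Mcm2 at 0.53 ± 0.17, Bub1 at 0.48 ± 0.11, Uhrf1 at 0.47 ± 0.18, Mcm4 at 0.44 ± 0.08, Ccne1 at 0.4 ± 0.14 and Rrm2 at 0.39 ± 0.1. Uhrf1, which brings maintenance DNA methylation to the fork, passed narrowly (adjusted p = 0.0499). With untreated libraries alone 5 genes were called, Bub1, Mcm4, Mcm5, Mcm6 and Mcm7, beside 2986 of all genes. The count was 9 without untreated replicate 2, mast cell supernatant replicate 2 or mast cell supernatant replicate 4. Over all genes, leaving out single libraries gave 4382 to 5600 calls, beside 5288 with all libraries. Fibroblast markers summed to 139.5 to 162.9 CPM in batch 2 and to 11.8 to 29.5 in batch 1, and their part in this difference was not tested.

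Against batch 2, the 8 largest differences of batch 3 were those of Rrm2 (log2 fold change -1.82 ± 0.11), Tyms (-1.61 ± 0.1), Mcm5 (-1.6 ± 0.13), Top2a (-1.4 ± 0.06), Bub1 (-1.36 ± 0.12), Aurkb (-1.29 ± 0.1), Ccna2 (-1.25 ± 0.08) and Cdk1 (-1.24 ± 0.09). Rrm2 ran from 38.8 to 49.96 CPM in the 4 libraries of batch 2, a 3.53-fold difference by the fit (edgeR adjusted p = 2.94e-09). E2f1 again had the smallest, at -0.18 ± 0.07 (adjusted p = 0.0434). These comparisons share batch 3 with those against batch 1 and are not separate evidence.

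Genes of the cell cycle outside the 33 were taken from lists of the same processes. Of 52 other genes of mitosis, 50 were lower in batch 3 than in batch 1 and 0 higher, with a median log2 fold change of -0.97. Over all genes tested, 10.7% were lower and 10.5% higher in this comparison. Spc24 and Ndc80, subunits of the complex that ties kinetochores to microtubules, stood at -1.48 ± 0.14 and -1.41 ± 0.12, and Pbk, a mitotic kinase, and Kif4, a chromosome motor, at -1.47 ± 0.16 and -1.38 ± 0.13. The 2 not called were Pttg1, securin, at 0.01 and Bub3, a checkpoint protein, at -0.03. Of 40 other genes of S phase, 23 were lower and 1 higher, with a median of -0.44. Tk1, thymidine kinase, stood at -1.27 ± 0.08, Clspn, an adaptor of the replication checkpoint, at -1.23 ± 0.12, and Lig1, the ligase that joins Okazaki fragments, at -1.05 ± 0.07.

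Upstream regulators were called in both directions. Of 26 other G1 and E2F/DREAM genes, 3 were lower in batch 3 than in batch 1 and 4 higher, a share of 26.9% called against 21.2% of all genes. Against batch 2, 12 were lower and 1 higher (50% called, against 37.0% of all genes), and in batch 2 against batch 1, 8 were higher and 1 lower (34.6%, against 40.5%). The atypical repressors E2f7 and E2f8 were lower, at -1.38 ± 0.16 and -1.02 ± 0.1, and Skp2, a ubiquitin ligase subunit that removes CDK inhibitors, and E2f3 were higher, at 0.38 ± 0.12 and 0.23 ± 0.06. Among 7 genes of CDK inhibitors, which block the cyclin kinases, 4 were lower, Cdkn2a (-1.42 ± 0.22), Cdkn2c (-0.73 ± 0.08), Cdkn2d (-0.72 ± 0.09) and Cdkn2b (-0.6 ± 0.14), and 1, Cdkn1c, higher. Of 11 p53 targets, genes that respond to DNA damage and stress, 6 were higher, among them Trp53inp1 (0.65 ± 0.1) and Bbc3 (0.37 ± 0.08), and 2 lower, Btg2 (-1.04 ± 0.19) and Pmaip1 (-0.57 ± 0.15). In batch 2 against batch 1, Cdkn1c stood at -2.25 ± 0.1 with Cdkn2b at -0.96 ± 0.15, and the cyclin D genes Ccnd1 and Ccnd2 were higher, at 1.38 ± 0.38 and 1.36 ± 0.25. In the same comparison 18 of the 40 S phase genes were higher, Hells, a chromatin remodeller, most (1 ± 0.2), and 0 lower, while 8 of the 52 genes of mitosis were higher and 5 lower. These are 45% and 25% of the lists called, beside 40.5% of all genes, of which 20.3% were higher and 20.2% lower.

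**Figure D3:**
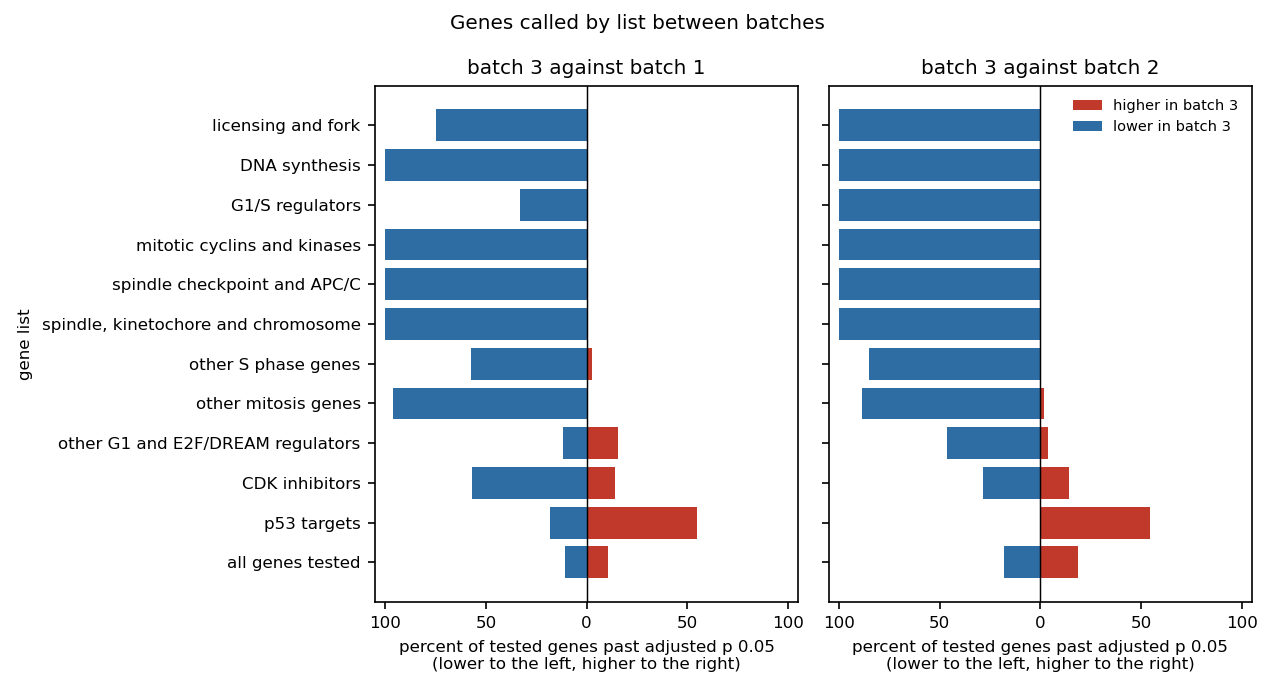
Share of the tested genes of each list that were lower (blue, to the left) or higher (red, to the right) in batch 3 than in batch 1 or batch 2, in percent. The lists of mitosis reach 96.2% to 100% lower against batch 1, while all genes tested stand near 10.7% lower and 10.5% higher.

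The comparison of supernatants with untreated cells, the one the design text names, gave 1 call among the 33 genes. E2f1 rose with mast cell supernatant, and 0 of 33 fell; 4.79% of the 13061 genes tested were called, 2.17% higher and 2.62% lower. E2f1 (ENSMUSG00000027490, chromosome 2, 154559407 to 154569892) stood at 47.2 and 47.6 CPM in the untreated libraries of batch 1 and at 54.4 and 52.8 with mast cell supernatant. In batch 2 it was 49.5 and 56.3 CPM untreated and 57.1 with mast cell supernatant, and in batch 3 46.2 and 39.6 untreated and 56.1 and 54.03 with it. The groups did not overlap within any batch, and in batch 2 the higher untreated library came close to the treated one. The log2 fold change was 0.23 ± 0.06 (95% interval 0.1 to 0.35, edgeR adjusted p = 0.0409), or 1.17-fold, and by batch it was 0.18, 0.11 and 0.36. This call was not firm. It was lost without batch 1, 2 or 3, and when any of untreated replicates 1, 2, 4 and 6, trap supernatant replicate 3 or any mast cell supernatant library was left out, with adjusted p up to 0.0994 in these single omissions. With replicates 1 to 3 alone and their number as a block, 0 of 33 genes were called (E2f1 adjusted p = 0.21). In these 9 libraries the number is the same as the batch, so this fit has the same terms and only fewer libraries.

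The next members in order of p were replication genes, none past the threshold. Pcna (ENSMUSG00000027342, chromosome 2, 132249162 to 132253314) was at 397 and 401 CPM in untreated libraries of batch 1 and at 437 and 467 with mast cell supernatant. In batch 2 it was 388.5 and 402.5 CPM untreated and 437 treated, and in batch 3 341 and 271 untreated and 377 and 349 treated. Every treated library was above every untreated one of its batch, with a log2 fold change of 0.19 ± 0.06 (interval 0.07 to 0.31, edgeR adjusted p = 0.0622). Mcm2 stood at 0.47 ± 0.16 (interval 0.12 to 0.81, adjusted p = 0.119) and Mcm3 at 0.24 ± 0.09 (0.04 to 0.44, adjusted p = 0.161). Both were uneven over batches 1, 2 and 3, with -0.04, 0.4 and 1.09 for Mcm2 and 0.05, 0.06 and 0.58 for Mcm3. Of all 13061 genes tested, 2501 had an unadjusted p under 0.05. Among the 33 genes 9 did, the others being Mcm5, Mcm7, Tyms, Uhrf1 and Cdc6, all with positive values and all replication genes but E2f1. DESeq2 called 3 of them, E2f1, Mcm2 and Pcna, beside 884 of all genes. The median log2 fold change was 0.21 for licensing and the fork, 0.2 for DNA synthesis, 0.05 for the mitotic cyclins and kinases and -0.01 for all genes. By batch, the median for licensing and the fork was 0.02, 0.06 and 0.53.

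None of the mitotic genes passed, and their intervals held 0. Top2a had a log2 fold change of 0.02 with mast cell supernatant (interval -0.09 to 0.12), Mki67 of 0.09 (-0.05 to 0.23), Cdk1 of 0.11 (-0.06 to 0.28) and Ccna2 of -0.02 (-0.17 to 0.12). Cenpf had a wider one, from -0.51 to 0.07, and the widest of the 33 was that of Ccne2, -0.39 to 0.37. A p that misses the threshold does not show that these genes were alike.

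**Figure D4:**
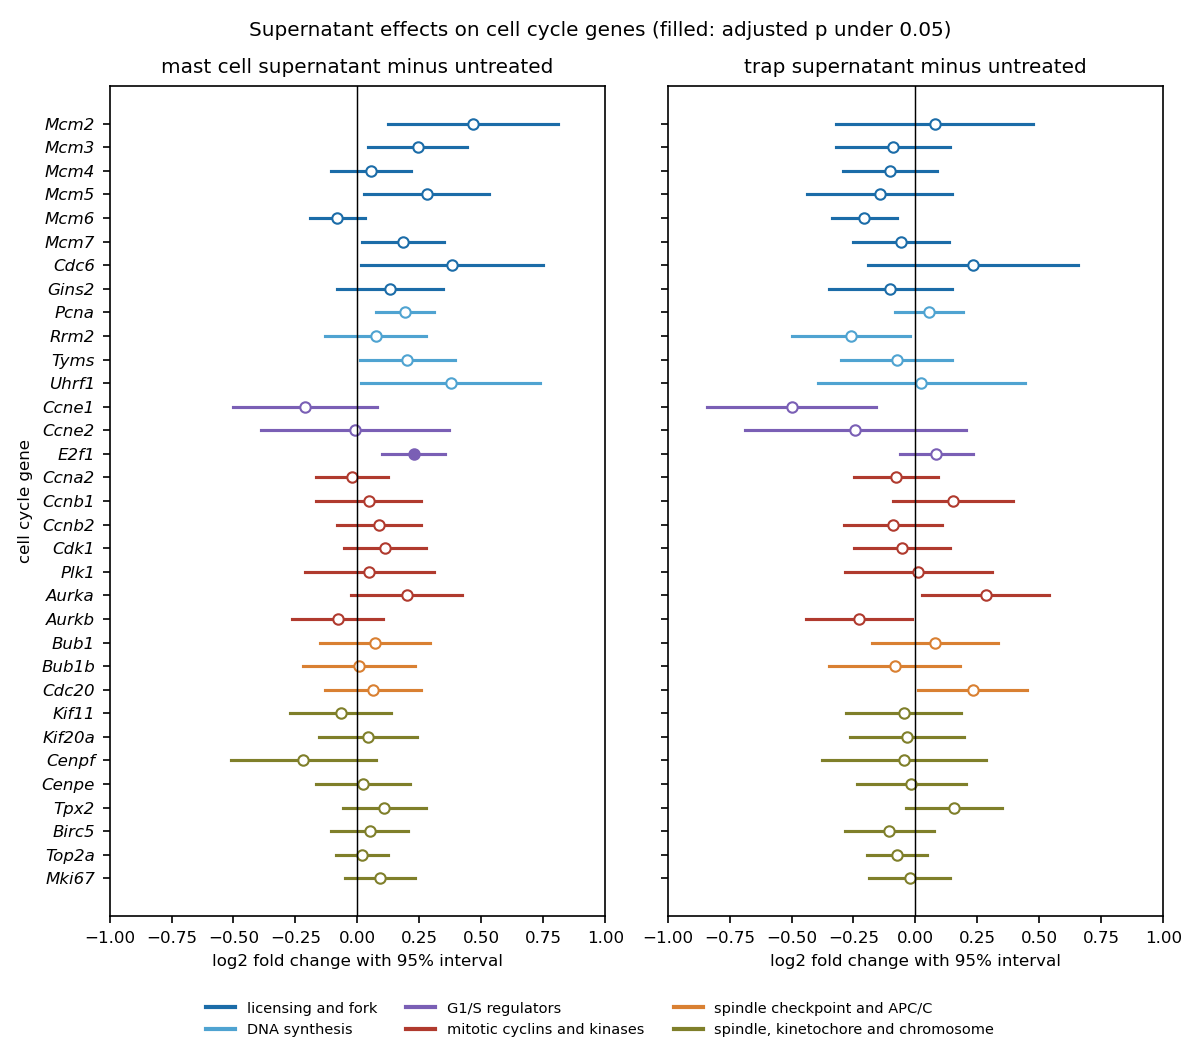
Log2 fold changes of the 33 cell cycle genes with each supernatant against untreated libraries, with 95% intervals, from the model with batch. E2f1 with mast cell supernatant is the only filled point, and of the 12 replication genes at the top, all but Mcm6 lie to the right of 0 with mast cell supernatant, while with trap supernatant they lie on both sides.

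With trap supernatant 0 of 33 genes passed, where 1.72% of all genes tested were called, 0.919% higher and 0.796% lower. That background of 224 genes became 134 without untreated replicate 2, 131 without untreated replicate 5, 137 without trap supernatant replicate 1 and 97 without trap supernatant replicate 3. Of the 33, 6 had an unadjusted p under 0.05, against 1666 of all 13061 genes tested. Mcm6 (ENSMUSG00000026355, chromosome 1, 128331590 to 128359664) was at 109.5 and 107 CPM untreated and 104 with trap supernatant in batch 1, at 143 and 146 against 118 in batch 2, and at 89.4 and 80.4 against 70.2 in batch 3. The trap library was the lower in each batch, with a log2 fold change of -0.21 ± 0.06 (interval -0.34 to -0.08, edgeR adjusted p = 0.118). Ccne1 stood at -0.5 ± 0.16 (-0.84 to -0.16, adjusted p = 0.155), with within-batch values of -0.54, -0.47 and -0.46. Aurka, a kinase of the spindle poles, stood at 0.28 ± 0.12 (0.03 to 0.54, adjusted p = 0.33) and Rrm2 at -0.26 ± 0.11 (-0.5 to -0.02, adjusted p = 0.337). Without untreated replicate 6, which had the lowest Rrm2 level of all 14 libraries, Rrm2 was called (adjusted p = 0.0208).

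Between the supernatants 0 of 33 genes and 0 of all 13061 passed edgeR's test. An unadjusted p under 0.05 was found for 5 of the 33 and for 569 of all genes tested. DESeq2 called 0 of the 33 and 11 of all genes. Mcm3 (log2 fold change of trap against mast cell supernatant -0.33, interval -0.58 to -0.09), Mcm5 (-0.42, -0.73 to -0.11), Rrm2 (-0.34, -0.58 to -0.08) and Mcm7 (-0.24, -0.45 to -0.04) had the smallest p-values, each with an adjusted p of 1. The trap libraries had the lower level by the fit in 26 of 33 genes, among them all 15 of replication and the G1/S step, and in 6487 of all 13061 genes. Genes measured in the same libraries are not independent, so this count is not a test. With 3 trap libraries, 1 a batch, a 1.5-fold change was found in 60% of genes in simulated data for this comparison.

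A gene of a CDK inhibitor outside the 33 had a higher level with both supernatants. Cdkn2b, which encodes p15, an inhibitor of the cyclin D kinases, was at 5 and 5.39 CPM untreated in batch 1, 9.51 and 11.8 with mast cell supernatant and 8.78 with trap supernatant. In batch 2 it was 3.44 and 3.09 CPM untreated, 4.40 with mast cell supernatant and 4.14 with trap supernatant. In batch 3 it was 3.14 and 3.23 CPM untreated, 7.65 and 5.8 with mast cell supernatant and 7.01 with trap supernatant. Every treated library exceeded the untreated ones of its batch, and the log2 fold changes were 0.9 ± 0.14 (edgeR adjusted p = 0.00131) and 0.76 ± 0.16 (adjusted p = 0.0202). With mast cell supernatant, Gtse1, a mitotic gene whose product restrains p53, rose by 0.33 ± 0.08, and Sesn2, a p53 target of the stress response, by 0.36 ± 0.06. No other gene of the lists of S phase, mitosis, G1 regulators, CDK inhibitors and p53 targets was called with either supernatant. Mast cell markers were also higher in the treated libraries, and their part in these differences was not tested.

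Within batches, several replication genes had larger values against their untreated level in batch 3, but a test of whether the effect differed between batches called 0 of the 33. The median log2 difference of the 8 genes of licensing and the fork between mast cell supernatant and untreated libraries was 0.02, 0.06 and 0.53 in the order of the batches, with all genes tested at -0.01, -0.01 and 0.001. With trap supernatant these medians were -0.12, -0.18 and 0.2. Mcm6 went with neither, at -0.08, -0.02 and -0.11 with mast cell supernatant and at -0.27 in batch 3 with trap supernatant. The mitotic cyclins and kinases stood at 0.07, -0.001 and 0.02 with mast cell supernatant.

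Mcm2 (ENSMUSG00000002870, chromosome 6, 88883474 to 88898780) was at 23.5 and 21.7 CPM untreated in batch 1, 20.4 and 23.8 with mast cell supernatant and 20.1 with trap supernatant. In batch 2 it was 28.1 and 29.99 CPM untreated, 38.4 with mast cell supernatant and 27.5 with trap supernatant. In batch 3 it was 13.8 and 10.4 CPM untreated, 26.6 and 24.7 with mast cell supernatant and 18.1 with trap supernatant. The mast cell supernatant libraries of batch 3 were above those of batch 1, and the untreated ones of batch 3 were the lowest of all 14. The log2 difference within batches with mast cell supernatant was -0.04, 0.4 and 1.09.

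Uhrf1 (ENSMUSG00000001228, chromosome 17, 56303321 to 56323486) was at 15.8 and 9.22 CPM in the untreated libraries of batch 3, at 24.5 and 24.8 with mast cell supernatant and at 17.7 with trap supernatant. In batch 1 its 5 libraries lay between 24.6 and 29.7 CPM. Cdc6 was at 3.63 and 2.21 CPM untreated in batch 3, at 5.61 and 5.97 with mast cell supernatant and at 5.16 with trap supernatant. For both genes the treated libraries of batch 3 all lay above its untreated ones, by 1.02 and 1.01 on the log2 scale with mast cell supernatant. Mcm5 (ENSMUSG00000005410, chromosome 8, 75109569 to 75128439) was at 18.4 and 14.5 CPM untreated in batch 3, at 30.8 and 24.3 with mast cell supernatant and at 18.9 with trap supernatant. All of these stayed below the 35.04 CPM that was its lowest level in batch 1.

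A test of whether the effect of either supernatant differed between batches, an interaction term in the model, called 0 of 33 genes, against 5.36% of all genes tested. The background of 700 genes ranged from 235 without untreated replicate 1 to 1175 without untreated replicate 3. Of all 13061 genes tested, 2331 had an unadjusted p under 0.05 in this test. A close share of the 33, 6 genes, did so: Mcm2 (edgeR adjusted p = 0.0525), Mcm7 (0.111), Uhrf1 (0.129), Cdc6 (0.129), Mcm3 (0.251) and Mcm5 (0.252). With mast cell supernatant and untreated libraries alone 4 genes were called, Mcm2, Mcm5, Plk1 and Uhrf1, beside 1187 of all genes. Without batch 3 the count was 0, beside 235 of all genes. DESeq2 called 2, Mcm2 and Uhrf1, beside 943 of all genes. Untreated replicates 3 and 6 are the only untreated libraries of batch 3, and 3 genes were called without the former, Cdc6, Mcm2 and Uhrf1, and 0 without the latter. The mast cell markers summed to 299.3 and 237.3 CPM with mast cell supernatant in batch 3 and to 2081 with trap supernatant, where Mcm2, Uhrf1 and Mcm5 had the lower level of the treated libraries. Their part in the result was not tested.

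**Figure D5:**
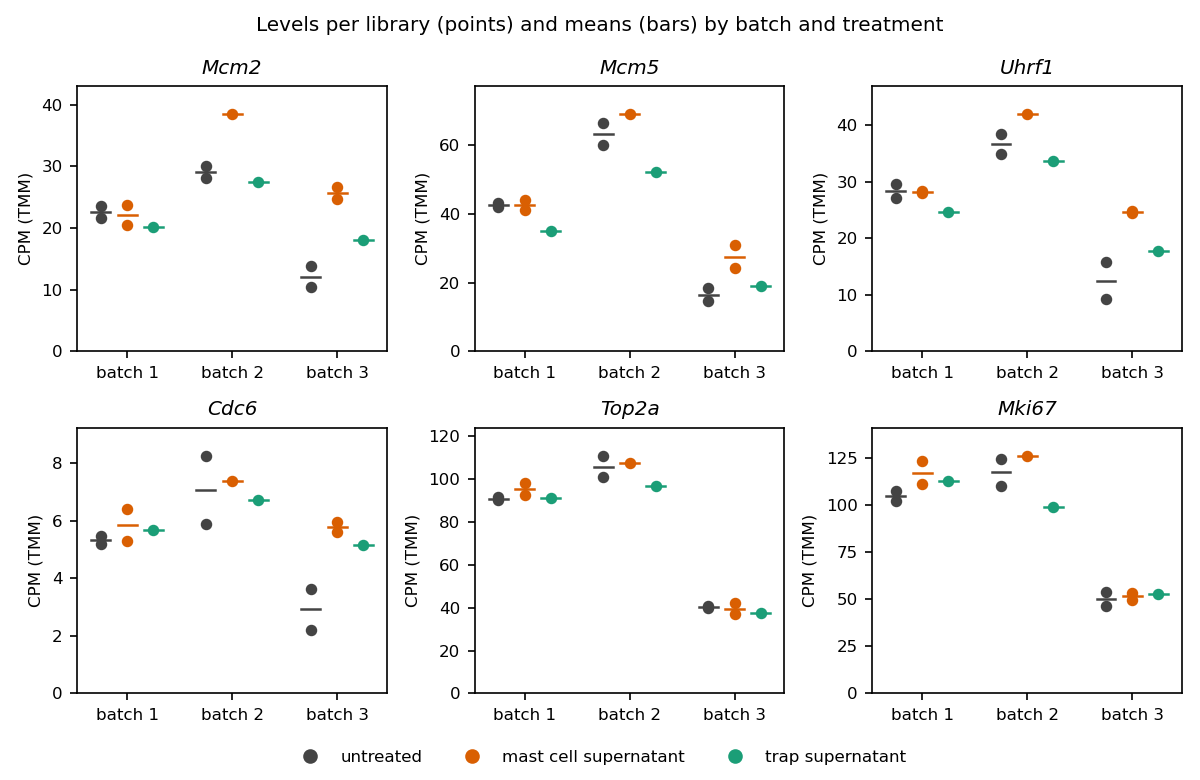
Level in CPM of 6 cell cycle genes in each library (points) with the mean of each group (bars), by batch. In batch 3 the untreated libraries of Mcm2, Mcm5, Uhrf1 and Cdc6 lie lowest and those with mast cell supernatant above them, while the groups of Top2a and Mki67 coincide at a low level.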

How the data were processed

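Poly(A) RNA was sequenced in 14 libraries made with a stranded kit, per the labels' protocols. The authors deposited raw read counts per gene in a table of 47937 genes, made with featureCounts 2.0.0 on GRCm38, per the submitters' processing notes; the aligner, annotation release and strand setting were not stated there. Symbols and exon lengths, merged over all transcripts of a gene, came from GENCODE release 21 and promoter letters from RefSeq (GRCm38.p6).

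Counts were analysed with edgeR 4.0.16 in R 4.3.3: filterByExpr by group, TMM, a robust quasi-likelihood model of group and batch over 14 libraries, F tests and Benjamini-Hochberg adjustment over 13061 genes at 0.05. Standard errors and 95% intervals are those implied by F. Whether the effect of supernatant differed by batch was tested with both supernatants pooled in an interaction model. Differences within a batch are of mean log2 CPM (prior count 1). Alternatives used DESeq2 1.42.0, limma-voom 3.58.1 and other filters, scalings and sets of libraries.

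The 33 genes, the lists and the tests were chosen with earlier results of these data known. Per comparison, full values are given for up to 8 genes called with the largest change, or the 4 with the smallest p where fewer than 4 passed, and up to 4 called genes per other list; further genes were named after their values were seen. One result the rule gives is not reported here.

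In each group replicates 1, 2 and 3 are labelled batch 1, 2 and 3. Deviations from group means correlated at 0.298 to 0.71 in the 9 pairs with the same number and at -0.592 to 0.173 in others. Libraries of the same number here are also those of the same batch, so pairing by number cannot be told apart from batch. No libraries were identical; chi-square over degrees of freedom was 1.82 to 15.2 between libraries of a group in 1 batch and 31.8 to 81.9 across batches. In simulated counts with 200 changed genes, edgeR recovered 44% of 1.25-fold and 84% of 1.5-fold changes for mast cell supernatant (12917 genes), 24% and 56% for trap supernatant (12924 genes), and, for effects that differed by batch (12925 genes), 12% at 1.5-fold and 58% at 2-fold.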

Additional observations from a re-analysis of the deposited data

Results flagged for a closer look

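In groups of 4 to 10 libraries, 66 gene and group combinations were checked for a library far from the rest, and 2 were found, fewer than the roughly 1 in 20 that chance gives. Both were in mast cell supernatant replicate 2, of batch 2: Uhrf1 at 41.9 CPM, with the nearest library at 28.3, and Ccne2 at 8.4 CPM, with the nearest at 4.84. It is the only mast cell supernatant library of that batch, where the untreated libraries were also high (34.9 and 38.5 CPM for Uhrf1, 9.32 and 6.31 for Ccne2).

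Among 136 listed cell cycle genes outside the 33, the effect of supernatant differed between batches, by edgeR's interaction test, for 11, or 8.1% against 5.36% of all genes tested. Dtl, an adaptor of the ubiquitin ligase that clears replication factors (adjusted p = 0.0433), and Hells (0.0308) had log2 differences between treated and untreated libraries of -0.27, -0.2 and 0.76, and of -0.31, -0.2 and 0.83, in batches 1, 2 and 3. Ccnd3 (adjusted p = 0.0129) and E2f6 (0.0154) went from -0.24 and -0.33 in batch 1 to 0.5 and 0.3 in batch 3. The p53 targets Btg2 (adjusted p = 0.00183), Mdm2 (0.0123) and Pmaip1 (0.00684) went from 0.82, 0.72 and 0.89 in batch 1 to -0.2, -0.06 and -0.04 in batch 3, and Cdkn1a (0.0109), which encodes p21, from 0.47 to -0.04. Sesn1 (adjusted p = 0.0247) stood at -0.58 and 0.14, Hmgb2 (0.00751) at 0.46 and -0.35, and Cdkn1c (0.0462) at 0.19 and -0.28.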

How the results depend on the processing

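Counts of the 33 genes called were 29 and 33 for batch 3 against batches 1 and 2 and stayed within 1.5 times under every alternative run, with 28 to 29 and 32 to 33 when single libraries were left out; no value changed sign among those called. For mast cell supernatant the count of 1 became 2 with no filter on low counts (E2f1 and Pcna), 3 with DESeq2, and 0 with no batch term, with the replicate block, with only the groups compared, without batch 2 and without batch 3; without batch 1 it was 1, Mcm2 in place of E2f1. Leaving out single libraries gave 0 to 2 for mast cell supernatant, 0 to 1 for trap supernatant, 9 to 15 for batch 2 against batch 1 and 0 to 3 for the effect by batch. The last count became 4 with no filter, 2 with DESeq2 and 4 with mast cell supernatant and untreated libraries only. Batch 2 against batch 1 gave 5 with untreated libraries only. The replicate block has the same terms as the model used, on 9 libraries in place of 14, and changed no other call among the 33. Over all genes, the replicate block gave 84 calls for mast cell supernatant and 36 for trap supernatant (224 in the model used), and no batch term gave 62 and 15. DESeq2 gave 884 for mast cell supernatant, 409 for trap supernatant, 11 between the supernatants and 943 for the effect by batch. Without batch 2 there were 231 for mast cell supernatant and 88 for trap supernatant. Trap supernatant gave 116 without batch 1, and the effect by batch gave 1498 with no filter, 1187 with mast cell supernatant and untreated libraries and 235 without batch 3, a setting chosen after seeing the data. Batch comparisons with untreated libraries only gave 2986 for batch 2 and 1269 for batch 3 against batch 1, and treated ones gave 3099 for batch 3 against batch 2. Leaving out single libraries gave 97 to 280 calls over all genes for trap supernatant and 235 to 1175 for the effect by batch, the latter with 242 without untreated replicate 4, 413 and 404 without mast cell supernatant replicates 4 and 5, and 1052 without trap supernatant replicate 3. The causes of these changes were not tested. Ccne2, Cdc6 and Ccne1 had the fewest counts, which limits them most.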

Other observations

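Per kilobase of exon, Mcm2 had the lowest level of the 6 helicase subunits in untreated libraries, 3.05 CPM, with Mcm7 at 7.14, Mcm4 at 9.3, Mcm5 at 10.2, Mcm3 at 11.8 and Mcm6 at 24.2. Its merged exon length, 6956 bases, was also the longest of the 6, which widens the gap. Without division by length Mcm2 stood at 21.3 CPM and Mcm7 at 31.6. Ccnd1 differed between the untreated libraries of batch 3 more than any of the 33 genes did, with 358 and 92.5 CPM, and lay at 459 and 464 with mast cell supernatant and at 400 with trap supernatant. Xist had at most 1 count in an untreated library; its counts ran from 7 to 238 after mast cell supernatant and from 7 to 289 after trap supernatant, while Ddx3y, a gene of the Y chromosome, had 434 to 986 counts in all 14.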
